A study of Gallus gallus with 6 samples.

Results

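The genes described here are those whose RNA was raised by MEK1ca over the control vector pCIG and lowered beneath the control when HOXB8 was added to MEK1ca. In the deposited count table they were chosen by their measured levels in CPM (the count scaled to the library's total). A gene was taken when its mean in MEK1ca was at least 5 CPM, when that mean was at least 25% above the pCIG mean, and when the mean in MEK1ca + HOXB8 was at most 0.67 times the pCIG mean (0.5 CPM was added to each mean in these ratios). Both MEK1ca libraries also had to lie above both pCIG libraries, and both MEK1ca + HOXB8 libraries beneath them. Of 17108 genes, 27 met these conditions. Because the choice used all 6 libraries and all 3 comparisons, the levels, folds and calls of these genes are given as a description and support nothing by themselves.

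RNA-Seq was made from chicken embryo neural tube cells. Embryos were electroporated in ovo at stage HH 11 with MEK1ca and HOXB8 vectors together (1 µg/µL each), with the MEK1ca vector and empty pCIG (1 µg/µL each), or with pCIG alone (2 µg/µL), and 18 h later the GFP-positive cells of pooled embryos were sorted. There were 2 libraries in each of the 3 conditions. Every vector carried the same GFP, so that a sorted cell is known to hold a vector but not both of them. The paper cites earlier work for nearly total co-transfection of 2 plasmids at this stage, and assumed that GFP-positive cells expressed both. The control also underwent electroporation and sorting. The pCIG and MEK1ca libraries had been published earlier. No statement was found that the libraries with HOXB8 come from the same preparation, and a batch and the addition of HOXB8 cannot be told apart. In such bulk samples, fewer cells of a type and less RNA per cell cannot be told apart either.

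MEK1 is the kinase that phosphorylates and activates ERK1/2, the last kinases of the RAS/RAF/MEK/ERK cascade, and MEK1ca is a form of it that is active without upstream signal. ERK enters the nucleus and acts on transcription factors, and in the embryo the cascade carries FGF signals that keep caudal neural tissue in a progenitor state. HOXB8 is a homeodomain transcription factor of the Hox family, which gives cells along the trunk their position. The comparison asks how HOXB8 changes the transcripts that overactive MEK1 raises.

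Total counts lay between 63637195 and 90460770 per library. Low counts (1 to 10) of MEK1ca replicate 2 were even in 99.4% of cases, while the remaining 5 libraries had 51.8% to 57.0%, and a fit with its counts divided by 2 was also made. The lowest count of any of the 27 genes in any library was 53. The table pairs no Ensembl identifier with a symbol, and the chicken RefSeq gene table at hand held no Ensembl identifiers to match. The identities of the 27 genes, the levels of the electroporated genes and the markers of neural tube and other cells were therefore not looked up, and the part of other cell types in these values was not tested. Members are given by chromosome and exonic length in galGal4, the build of the counts, and 2 of them by identifier.

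The 27 genes were a small part of what MEK1ca raised. Under the same conditions 1039 genes were raised by MEK1ca, and the 27 make up 2.60% of them. Another 398 genes (38.3%) lay between 0.8 times pCIG and 25% above it with HOXB8, and are used below as a set for comparison. In 576 genes (55.4%) the level with HOXB8 was more than 25% above pCIG. The remaining 38 genes (3.66%) lay above 0.67 and under 0.8 times pCIG. They were nearer to the members in this ratio than the 398 genes, but were not described as a set. No raised gene reached 0.67 or less with libraries that overlapped those of pCIG. Among the 9307 genes with at least 5 CPM in MEK1ca, 386 were lowered beneath pCIG under the rule whatever MEK1ca did. These were a small part too, so a small share is not particular to the raised genes and nothing is read from it.

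**Figure D1:**
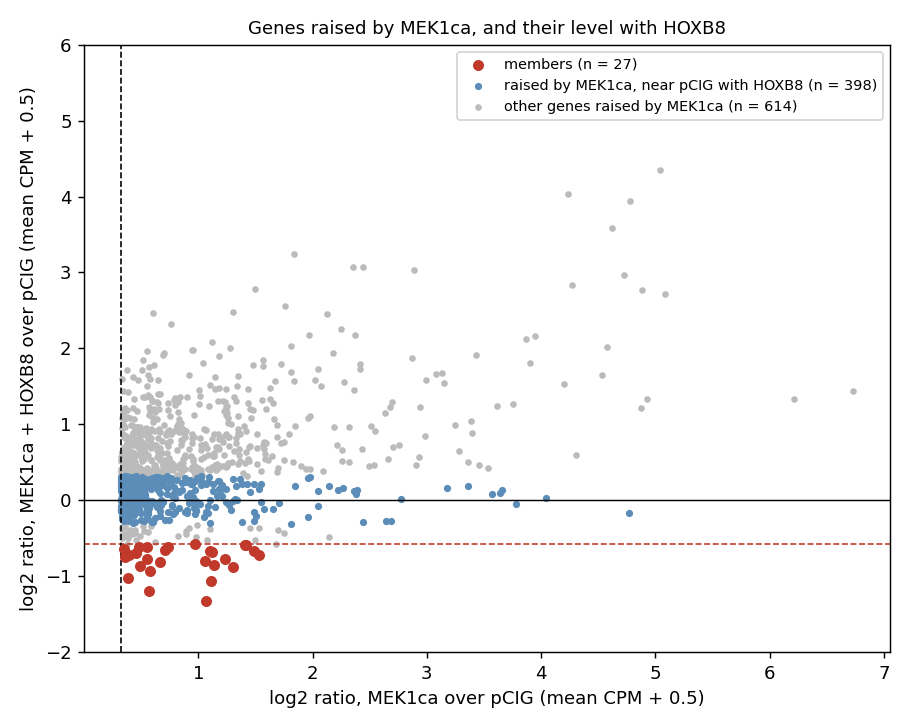
Each of the 1039 genes raised by MEK1ca, with the log2 ratio of MEK1ca to pCIG across and that of MEK1ca + HOXB8 to pCIG upwards (mean CPM + 0.5, 2 libraries per condition). The 27 members lie under the dashed line at a ratio of 0.67, with MEK1ca ratios of at most 2.89, while the 398 genes near pCIG with HOXB8 spread around 0.

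The rise with MEK1ca was moderate in most members. The ratio of MEK1ca to pCIG ran between 1.28 and 2.89 with a median of 1.66. It was at least 2 in 12 members, at least 1.5 and under 2 in 4, and under 1.5 in 11. With HOXB8 the ratio to pCIG ran between 0.398 and 0.669 with a median of 0.606, at most 0.5 in 4 members, above 0.5 and up to 0.6 in 9, and above 0.6 in 14. On the log2 scale the fall beneath the control was larger than the rise over it in 13 members. Against MEK1ca alone, again with 0.5 CPM added to each mean, 26 members were at 0.5 or less with HOXB8. Of these, 7 were at 0.25 or less.

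The separation of the libraries, which the rule demands, varied in width. The lower MEK1ca library was 1.03 to 2.41 times the higher pCIG library, with a median of 1.46, and in 5 members it was at least 2 times as high. The higher MEK1ca + HOXB8 library was 0.441 to 0.851 times the lower pCIG library, with a median of 0.694. Some members thus stood barely over the control with MEK1ca.

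**Figure D2:**
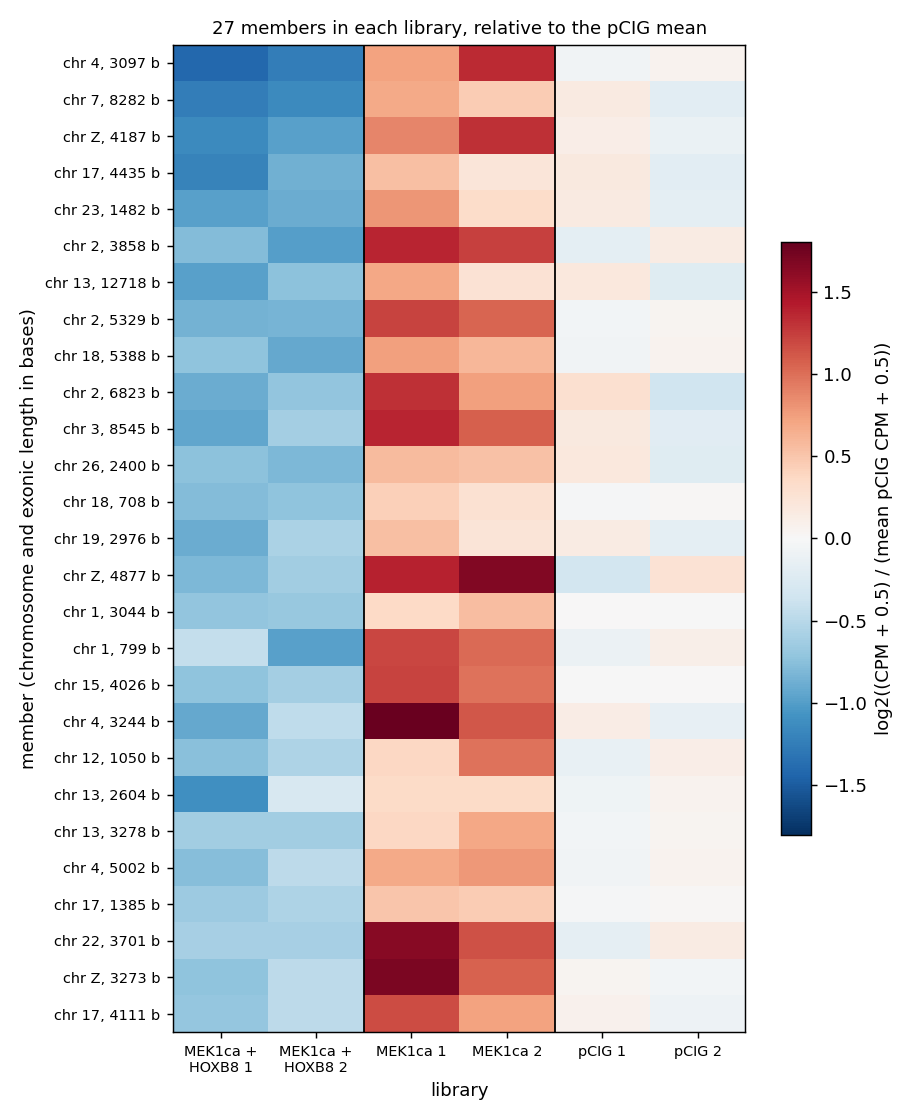
The 27 members (lines, by chromosome and exonic length, ordered by the ratio of MEK1ca + HOXB8 to pCIG) in the 6 libraries (columns), as log2((CPM + 0.5)/(mean pCIG CPM + 0.5)). Both MEK1ca + HOXB8 libraries are blue (lower) and both MEK1ca libraries red (higher) in every line, as the rule requires. Within a line the pCIG libraries lie between those of MEK1ca + HOXB8 and MEK1ca. Across lines, some pCIG values lie further from the pCIG mean than some MEK1ca or MEK1ca + HOXB8 values of other members.

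ENSGALG00000012278 (galGal4 chr4:59791983-59835703, minus strand, 12 exon segments, 3097 bases of exon) had the deepest fall beneath the control. It had 41.7 and 47.2 CPM in MEK1ca + HOXB8, 186 and 287 CPM in MEK1ca and 107 and 118 CPM in pCIG. The MEK1ca libraries differed the most from each other, and the 3 conditions did not overlap. With 0.5 CPM added to each mean, the mean with HOXB8 was 0.398 times that of pCIG and 0.190 times that of MEK1ca. By edgeR's quasi-likelihood F test, with Benjamini-Hochberg adjusted p over all genes tested, the log2 fold change was -2.52 (SE 0.19, adjusted p = 1.10e-04) for MEK1ca + HOXB8 versus MEK1ca. It was -1.42 (SE 0.18, adjusted p = 0.00128) for MEK1ca + HOXB8 versus pCIG and 1.09 (SE 0.18, adjusted p = 0.00674) for MEK1ca versus pCIG. Each of these calls was lost when single libraries were left out. Without MEK1ca + HOXB8 replicate 1 or 2 the adjusted p was 0.0211 or 0.0157 against MEK1ca and 0.0661 or 0.0519 against pCIG. The rise with MEK1ca was at 0.0464 without pCIG replicate 1 and at 0.0316 without pCIG replicate 2.

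ENSGALG00000012594 (galGal4 chrZ:40148867-40355175, plus strand, 18 exon segments, 4187 bases of exon) showed the same pattern at a level far lower. It had 1.66 and 1.92 CPM in MEK1ca + HOXB8, 8.28 and 11.4 CPM in MEK1ca and 4.68 and 3.90 CPM in pCIG. Its highest library with HOXB8 was 0.493 times its lowest control library. The log2 fold change by edgeR was -2.57 (SE 0.24, adjusted p = 4.85e-05) for MEK1ca + HOXB8 versus MEK1ca. It was -1.34 (SE 0.24, adjusted p = 0.00199) for MEK1ca + HOXB8 versus pCIG and 1.22 (SE 0.23, adjusted p = 0.00472) for MEK1ca versus pCIG. The fall beneath pCIG was at 0.0182 without MEK1ca + HOXB8 replicate 1 and at 0.0162 without pCIG replicate 1. The rise was at 0.0346 without MEK1ca replicate 2, at 0.0214 without pCIG replicate 1 and at 0.0534 without pCIG replicate 2. With 0.5 CPM added to each mean, this and the gene before it were the only members at a ratio to pCIG of at least 2 with MEK1ca and at most 0.5 with HOXB8. The fitted changes do not set them apart in this way. By edgeR a member on chromosome 2 (3858 bases of exon), among others, had comparable log2 fold changes. These were 1.55 for MEK1ca versus pCIG and -1.37 for MEK1ca + HOXB8 versus pCIG.

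The remaining members described singly were picked after their values were seen, as the most abundant in pCIG, the most raised, the second lowest in the ratio of MEK1ca + HOXB8 to pCIG with 0.5 CPM added, and the lowest in the ratio of MEK1ca to pCIG with 0.5 CPM added. For levels compared between genes, counts were divided by exonic length and scaled to the library (TPM). The most abundant member lies on chromosome 23 (galGal4 chr23:172314-183607, minus strand, 4 exon segments, 1482 bases of exon). It had 83.1 and 91.7 TPM in MEK1ca + HOXB8, 305 and 219 TPM in MEK1ca and 193 and 150.5 TPM in pCIG. The lower MEK1ca library stood close over the higher pCIG library, while both libraries with HOXB8 stood far beneath the control. By edgeR the log2 fold change was -1.62 (SE 0.16, adjusted p = 1.95e-04) for MEK1ca + HOXB8 versus MEK1ca and -1.02 (SE 0.16, adjusted p = 0.00192) for MEK1ca + HOXB8 versus pCIG. For MEK1ca versus pCIG it was 0.60 (SE 0.16, adjusted p = 0.0372), short of 0.01. Without MEK1ca + HOXB8 replicate 1 or 2 the adjusted p of the first was 0.0265 or 0.0188 and that of the second 0.0751 or 0.0592. The second was also at 0.011 without pCIG replicate 1. The rise with MEK1ca passed without MEK1ca replicate 2 (9.69e-04), with the replicate block in edgeR (0.00773) and in DESeq2 (0.00269).

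The second most abundant member lies on chromosome 17 (galGal4 chr17:8989404-9014494, plus strand, 12 exon segments, 4435 bases of exon). It had 52.98 and 68.9 TPM in MEK1ca + HOXB8, 191 and 151 TPM in MEK1ca and 144 and 110.2 TPM in pCIG. The gap between the MEK1ca and pCIG libraries was the narrowest of the 27 genes, and its log2 fold change by edgeR for MEK1ca versus pCIG was 0.41 (SE 0.16, adjusted p = 0.144). For MEK1ca + HOXB8 versus pCIG it was -1.11 (SE 0.16, adjusted p = 0.00182), with 0.0462 and 0.0209 when MEK1ca + HOXB8 replicate 1 or 2 was left out. For MEK1ca + HOXB8 versus MEK1ca it was -1.52 (SE 0.16, adjusted p = 4.01e-04), and 0.0197 without MEK1ca + HOXB8 replicate 1. This member thus belongs to the group by a fall, with a rise that did not pass the test.

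A member on chromosome 7 (galGal4 chr7:26674970-26859021, minus strand, 32 exon segments, 8282 bases of exon) had the second lowest ratio of MEK1ca + HOXB8 to pCIG with 0.5 CPM added, an order that the fitted changes do not keep. It had 73.9 and 79.5 CPM in MEK1ca + HOXB8, 281 and 242 CPM in MEK1ca and 197 and 155 CPM in pCIG. By edgeR its log2 fold change for MEK1ca + HOXB8 versus pCIG was -1.28 (SE 0.12, adjusted p = 6.14e-05), the smallest adjusted p of the 27 genes in that comparison. It was -1.88 (SE 0.12, adjusted p = 8.68e-06) for MEK1ca + HOXB8 versus MEK1ca and 0.60 (SE 0.12, adjusted p = 0.00733) for MEK1ca versus pCIG. The rise passed no longer without MEK1ca replicate 1 (0.0545) or pCIG replicate 2 (0.0811), with scaling by library size alone (0.0128) or in a fit of the 4 libraries compared (0.0339).

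The member most raised by MEK1ca is also the least abundant in pCIG by TPM. It lies on chromosome Z (galGal4 chrZ:3411089-3422336, plus strand, 4 exon segments, 4877 bases of exon) and had 0.884 and 1.08 CPM in MEK1ca + HOXB8, 5.86 and 7.22 CPM in MEK1ca and 1.44 and 2.43 CPM in pCIG. All conditions stood apart, with pCIG and MEK1ca + HOXB8 close to each other. By edgeR its log2 fold change was 1.77 (SE 0.30, adjusted p = 0.00260) for MEK1ca versus pCIG and -2.84 (SE 0.32, adjusted p = 1.29e-04) for MEK1ca + HOXB8 versus MEK1ca. For MEK1ca + HOXB8 versus pCIG it was -1.07 (SE 0.31, adjusted p = 0.0245), not called. The rise was at 0.0103 without MEK1ca replicate 2 and at 0.0218 without pCIG replicate 1.

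**Figure D3:**
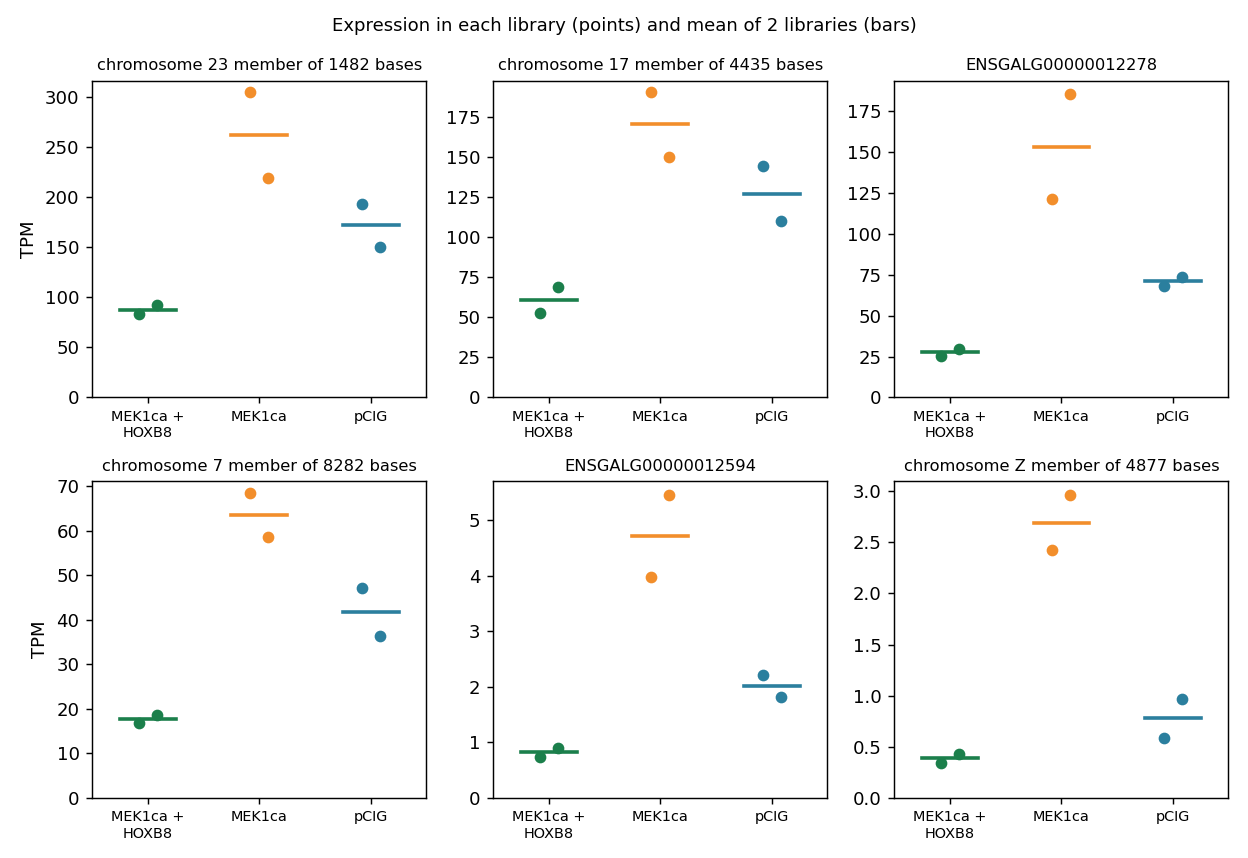
TPM of 6 of the members described singly, in MEK1ca + HOXB8, MEK1ca and pCIG. Points are libraries and bars are means of 2 libraries. In every panel both MEK1ca + HOXB8 points lie lowest and both MEK1ca points highest, and the levels reach between 0.340 TPM in the chromosome Z member of 4877 bases and 305 TPM in the chromosome 23 member.

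Over the 27 genes, all of which passed edgeR's filter on low counts, the calls at an adjusted p of 0.01 or less differed between comparisons. In MEK1ca + HOXB8 versus MEK1ca, 27 members were called lower and none higher, where 7.99% of the 13582 genes tested were called lower and 8.74% higher. In MEK1ca + HOXB8 versus pCIG, 17 were called lower and 10 were not called, where 5.9% of all genes were called lower and 8.91% higher. In MEK1ca versus pCIG, 16 were called higher and 11 were not called, where 4.26% of all genes were called higher and 1.9% lower. The rule used these contrasts, and its limits on both sides of the control add up in MEK1ca + HOXB8 versus MEK1ca. Nothing is therefore read from the order of the comparisons or from the distance to the shares of all genes. The median log2 fold change of the members was -1.76 for MEK1ca + HOXB8 versus MEK1ca (range -2.91 to -1.17), against 0.02 over all genes tested. It was -0.85 for MEK1ca + HOXB8 versus pCIG (-1.42 to -0.70), against 0.02, and 0.77 for MEK1ca versus pCIG (0.39 to 1.77), against -0.01.

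In 11 members all 3 comparisons were called, in 11 members 2 of them and in 5 members 1. The rule used all 3 comparisons, and the shares of all genes called in several together were not computed. Nothing is therefore read from these counts. Of the 11 with 2 calls, 6 lacked the call of MEK1ca over pCIG and 5 lacked that of MEK1ca + HOXB8 under pCIG. The 5 with 1 call were lower with HOXB8 than in MEK1ca alone and were called on neither side of the control. The member with the lowest ratio of MEK1ca to pCIG with 0.5 CPM added, on chromosome 13 (2604 bases of exon), had 2.16 and 4.22 TPM in MEK1ca + HOXB8, 6.99 and 6.95 TPM in MEK1ca and 5.03 and 5.48 TPM in pCIG. Its libraries with HOXB8 differed more from each other than its MEK1ca libraries differed from pCIG, and its rise had an adjusted p of 0.390 by edgeR.

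In most fits that left out 1 library, fewer members were called against the control, and fewer of all genes too. In MEK1ca + HOXB8 versus pCIG, 7 members were called lower without MEK1ca + HOXB8 replicate 1 (3.26% of all genes), 10 without MEK1ca + HOXB8 replicate 2 (5.06%), 10 without pCIG replicate 1 (1.99%) and 11 without pCIG replicate 2 (1.81%). In MEK1ca versus pCIG, 9 were called higher without MEK1ca replicate 1 (3.12% of all genes), 16 without MEK1ca replicate 2 (4.27%), 4 without pCIG replicate 1 (2.46%) and 6 without pCIG replicate 2 (2.01%).

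**Figure D4:**
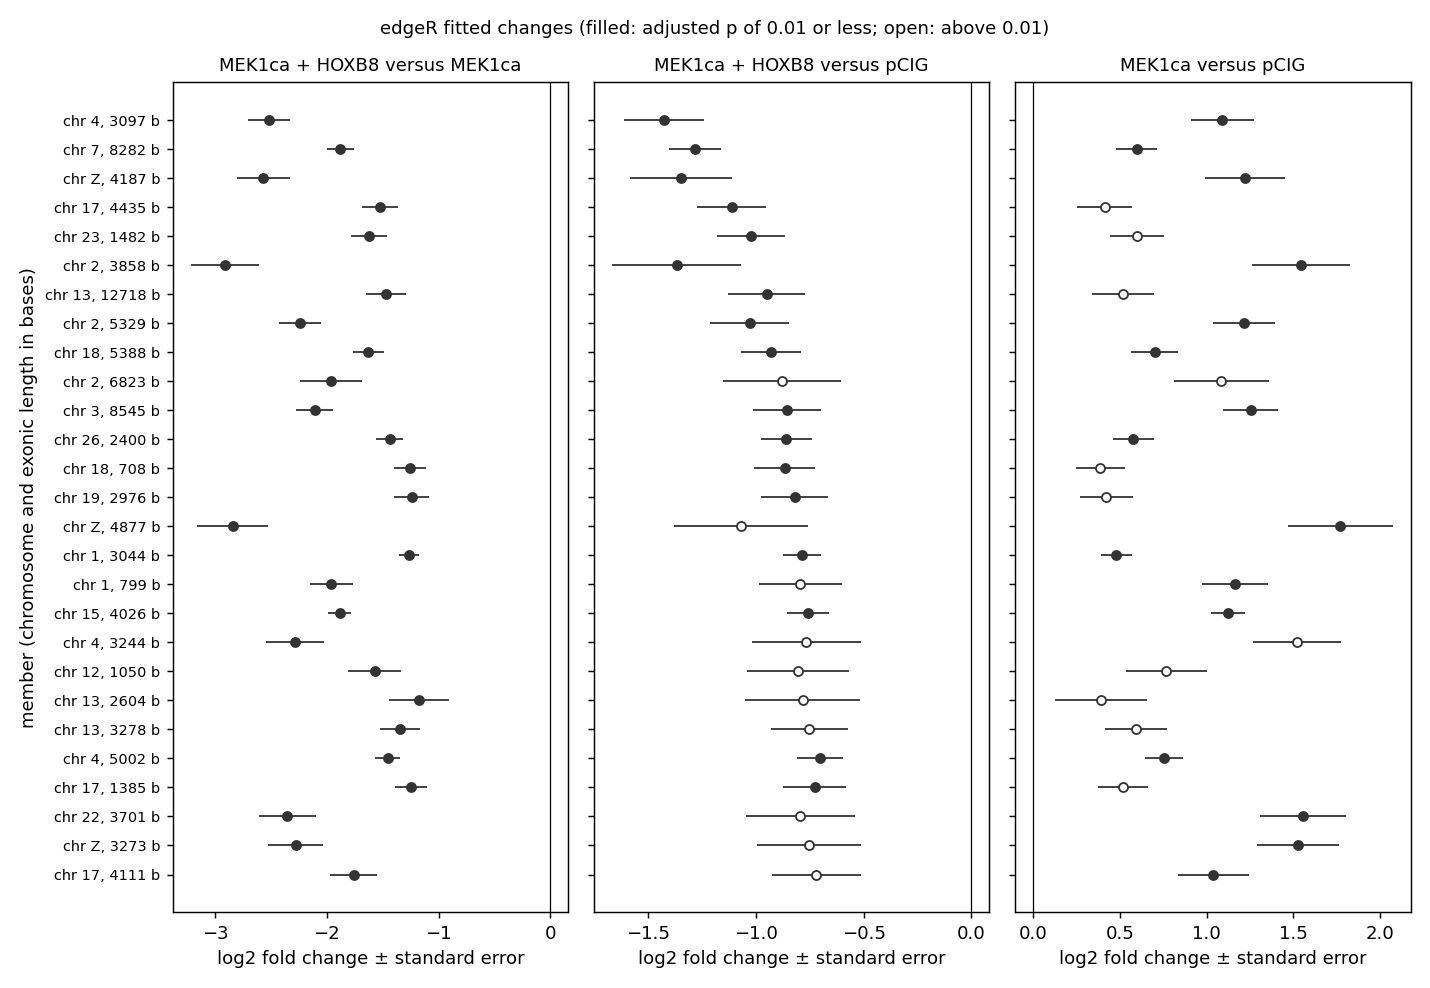
Log2 fold changes with standard errors from edgeR for the 27 members (by chromosome and exonic length) in the 3 comparisons. Filled points have an adjusted p of 0.01 or less. All 27 points are filled for MEK1ca + HOXB8 versus MEK1ca, 17 for MEK1ca + HOXB8 versus pCIG and 16 for MEK1ca versus pCIG.

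To read the pattern in libraries that had not chosen the genes, the conditions on level and ratios were applied to replicate 1 of each condition and the ratios were read in replicate 2. Of 43 genes so chosen, 23 of which are among the 27, 13 (30.2%) met both ratios again, with the level not demanded anew. Of all genes with at least 5 CPM in the MEK1ca library read, 0.386% met both ratios. Chosen in replicate 2 and read in replicate 1, 12 of 36 genes (33.3%) met both ratios again, where 0.465% of all genes at that level did. Of the 36, 16 are among the 27. The median log2 ratios in the libraries read were -0.39 and -0.60 for MEK1ca + HOXB8 over pCIG, and 0.62 and 0.52 for MEK1ca over pCIG. Both directions were kept in 36 of the 43 genes read in replicate 2. In replicate 1 only 21 of the 36 genes kept both. The share of all genes with both directions was not computed. These libraries also served the rule, so the reading is a description and nothing is read from the distance to the shares of all genes.

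The median fold between the 2 libraries of a condition was 1.16 in MEK1ca + HOXB8, 1.23 in MEK1ca and 1.20 in pCIG among the members. In the same order it was 1.12, 1.12 and 1.10 in the set near pCIG with HOXB8, 1.13, 1.14 and 1.12 among all 1039 raised genes, and 1.10, 1.07 and 1.07 among the 9307 genes with at least 5 CPM in MEK1ca. Levels differed between these sets, with a median in pCIG of 20.3 CPM in the members, 38.1 CPM in the set near pCIG, 18.9 CPM in the raised genes and 49.5 CPM in the 9307 genes. In 11 of 27 members (40.7%) replicate 1 was the higher library in both MEK1ca and pCIG, as in 49.5% of the set near pCIG and in 28.5% of the 9307 genes.

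Of all counts of a library, the 27 genes took 0.103% and 0.119% in MEK1ca + HOXB8, 0.390% and 0.332% in MEK1ca and 0.219% and 0.183% in pCIG. Their levels in pCIG spread widely, with 10 members under 10 CPM, 6 between 10 and 50 CPM and 11 at 50 CPM or more. The median level was 16.3 TPM in MEK1ca + HOXB8, 38.7 TPM in MEK1ca and 26.7 TPM in pCIG. In the set near pCIG with HOXB8 it was 24.3 TPM in MEK1ca + HOXB8, 37.6 TPM in MEK1ca and 24.2 TPM in pCIG. The sets were thus alike in their median TPM under MEK1ca, but not in their spread of CPM in pCIG. Under 10 CPM lay 37.0% of the members and 19.8% of the set near pCIG. At 50 CPM or more lay 40.7% and 42.2%.

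The genes just inside and just outside each limit had close values. For the ratio of MEK1ca to pCIG, members on chromosomes 13 and 18 stood at 1.28 and 1.28, and genes on chromosomes 3 and 17 that met all other conditions stood at 1.23 and 1.22. For the ratio of MEK1ca + HOXB8 to pCIG, members on chromosomes 17 and Z stood at 0.669 and 0.663, and genes on chromosomes 1 and 7 just missed at 0.671 and 0.673. For the level in MEK1ca, the lowest members, on chromosomes 2 and Z, had 5.04 and 6.54 CPM, and the nearest genes outside, on chromosomes 2 and 25, had 3.91 and 2.62 CPM.

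The 27 genes lay on 15 chromosomes. There were 3 each on chromosomes 2, 4, 13, 17 and Z, 2 each on chromosomes 1 and 18, and 1 each on chromosomes 3, 7, 12, 15, 19, 22, 23 and 26. Chromosome Z held 11.1% of the members and 5.02% of the 9307 genes with at least 5 CPM in MEK1ca. Chromosome 17 also held 11.1% of the members, against 2.21% of those genes. Such shares were not computed for chromosomes 2, 4 and 13, and no excess is read from 3 genes on a chromosome. A pair on chromosome 13 lay 57329 bases apart on the minus strand with 2 genes between them, and each had 2 exon segments. The members on chromosome 17 were 750873 and 1044784 bases apart, with 30 and 27 genes between them. No exon of a member overlapped an exon of another gene of the table. The span of 1 member, on chromosome 4 with 24 exon segments, held or crossed another gene.

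Members spanned between 858 and 551073 bases of the genome. Their median span between first and last exon was 48072 bases, against 24590 bases in the set near pCIG with HOXB8 and 15958 bases in the 9307 genes. Spans of at least 100000 bases were found in 7 members (25.9%), in 17.1% of the set near pCIG and in 7.80% of the 9307 genes. The median exonic length was 3701 bases in the members, 3057 bases in the set near pCIG and 2476 bases in the 9307 genes. The median number of exon segments was 10 in the members, 12 in the set near pCIG and 10 in the 9307 genes. These are descriptions with no test.

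Some of the genes next to the members were called, in shares both above and beneath those of all genes tested. The 53 nearest tested genes on either side lay at a median distance of 32501 bases. For MEK1ca + HOXB8 versus MEK1ca their median log2 fold change was -0.21. Of them, 9 were called lower (16.98%, against 7.99% of all genes tested) and 2 higher (3.77%, against 8.74%). For MEK1ca + HOXB8 versus pCIG the median was -0.12, with 6 called lower (11.3%, against 5.9%) and 3 higher (5.66%, against 8.91%). For MEK1ca versus pCIG it was 0.12, with 4 called higher (7.55%, against 4.26%) and 2 lower (3.77%, against 1.9%). In this last comparison the shares called in both directions were thus above those of all genes. These differences from all genes rest on few genes and were not tested.

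The set near pCIG with HOXB8 differs from the members by the rule itself. Of its 398 genes, 222 were called lower in MEK1ca + HOXB8 than in MEK1ca, where 7.99% of all genes tested were. In MEK1ca versus pCIG, 162 were called higher, where 4.26% of all genes were. None was called in MEK1ca + HOXB8 versus pCIG, where 5.9% of all genes were called lower and 8.91% higher. The limits of the set used these levels, so nothing is read from the counts. The median log2 fold change of the set was -0.61 for MEK1ca + HOXB8 versus MEK1ca and 0.55 for MEK1ca versus pCIG.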

How the data were processed

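The authors aligned reads to galGal4, and Subread and featureCounts are named in the submitters' processing notes. Their deposited table holds raw counts per gene of Ensembl 85, with exonic lengths. RNA was amplified linearly as cDNA and read as pairs of 50 bases. Versions, strandedness and the handling of multiply aligned reads are not given in the sources used here, so that reads of copies and of antisense genes could not be told apart. The authors' tables of comparisons (fold changes and p-values) were not used.

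Models were fitted with edgeR 4.0.16 and DESeq2 1.42.0 (R 4.3.3). Levels, ratios and figures were made with pandas 2.3.3 and matplotlib 3.10.9 (Python 3.11.15). Of 17108 genes, 13582 passed filterByExpr by group. A quasi-likelihood model with TMM scaling was fitted to all 6 libraries (common biological coefficient of variation 0.126), p-values were adjusted by Benjamini-Hochberg over all genes tested, and an adjusted p of 0.01 or less was called. The fit was tested on simulated data. Standard errors were derived by dividing the absolute log2 fold change by the root of the F statistic. With 2 libraries against 2, an exact permutation test of 1 gene cannot give a two-sided p under 0.333. Replicates were duplicate pools of embryos. The p-values set a change against the spread between libraries of a condition, estimated over the 3 conditions and partly shared across genes.

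The members and lists were chosen with earlier results of these data known. Genes were to be named by symbol, by size of change, level, list and nearness to the limits, and by identifier only for the first and second by the smaller of the rise over and the fall beneath pCIG. As no symbol was at hand, the gene lists, cell type markers and promoter motifs planned were not tested. Alternatives were other scalings, DESeq2, other filters, 4 libraries only, the replicate block, a threshold of 0.05, counts of MEK1ca replicate 2 divided by 2, other limits of the rule, and each library left out.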

Additional observations from a re-analysis of the deposited data

How the results depend on the processing

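The number of genes meeting the rule was 63 with a limit of 0.8 for the ratio of MEK1ca + HOXB8 to pCIG, 4 with a limit of 0.5, and 16 with a ratio of MEK1ca to pCIG of at least 1.5. It lay between 24 and 36 when 1 library was left out, with a change of members: of the 27, 19 still met the rule when MEK1ca + HOXB8 replicate 1 was dropped, 19 when pCIG replicate 1 was and 17 when pCIG replicate 2 was. It was 36 on TMM library sizes and 38 on the size factors of DESeq2. Leaving out 1 library gave 20 to 26 members called in MEK1ca + HOXB8 versus MEK1ca (4.06% to 6.88% of all genes), 7 to 11 in MEK1ca + HOXB8 versus pCIG (1.81% to 5.06% of all genes; 7 without MEK1ca + HOXB8 replicate 1, 10 without its replicate 2, 10 without pCIG replicate 1 and 11 without pCIG replicate 2), and 4 to 16 in MEK1ca versus pCIG (2.01% to 4.27% of all genes; 9 without MEK1ca replicate 1, 4 without pCIG replicate 1 and 6 without pCIG replicate 2). Each of these fits had fewer libraries, and the cause of the differences was not tested.

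Replicate numbers were not shown to pair the libraries: deviations from the condition means had correlations across genes of -0.03 between MEK1ca + HOXB8 and MEK1ca, -0.11 between MEK1ca + HOXB8 and pCIG and 0.13 between MEK1ca and pCIG. Among the 27 genes alone they were -0.04, -0.23 and 0.47. With the replicate block, 27, 18 and 18 members were called in these comparisons (7.44%, 5.49% and 4.46% of all genes), and with crossed numbers, chosen after seeing the data, 22 in MEK1ca + HOXB8 versus pCIG (9.14%). DESeq2 called 27, 22 and 20 (12.5%, 9.97% and 6.92%). With the counts of MEK1ca replicate 2 divided by 2, edgeR called 27, 18 and 16 (7.95%, 6.02% and 4.31%). ENSGALG00000012278 was not called in MEK1ca versus pCIG without a filter on low counts or in the fit of 4 libraries (adjusted p = 0.014 and 0.0721 by edgeR). Of the values of the 6 genes plotted in TPM, 207 stayed on their side of the threshold, 27 lost a call and 6 gained one.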
